A study of Mus musculus with 24 samples.

Results

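Cells of the mouse T-cell acute lymphoblastic leukaemia line T6E that carried R1984A were compared with T6E cells that carried DNMAML, both after 6 hours with compound E, an inhibitor of gamma-secretase (GSI), at 1 uM. R1984A is an intracellular Notch1 that is defective in dimerization, and DNMAML is a truncated Mastermind-like that blocks Notch transcription in a dominant negative way. The comparison took every array whose title names one of these groups, 3 for R1984A-GSI and 3 for DNMAML-GSI, or 6 of the 24 arrays of the series. The other 18 arrays held ICN1-GSI (intracellular Notch1 able to dimerize), MigR1-GSI (empty vector) and all 4 constructs in DMSO, with 3 arrays in each of the 8 groups. Every group shares the T6E background with its own Notch1, so that R1984A was added to a cell whose endogenous receptor was held by GSI, and DNMAML-GSI cells were blocked at cleavage and again at the coactivator. The labels give no measure of how much construct the cells held. They also do not say whether replicates were separate cultures, so the p-values reflect how much these samples varied, and that variation may be technical.

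Notch receptors are cut by gamma-secretase after ligand binding, which frees an intracellular part that enters the nucleus. There it forms a complex with the DNA-binding protein Rbpj and a Mastermind-like coactivator and switches on its target genes, a route that drives growth in most T-cell leukaemias of this kind. At some targets, 2 such complexes sit head to head on a pair of sites and touch each other through the surface that the R1984A change disrupts. Compound E stops the cleavage step, an intracellular Notch acts downstream of it, and the truncated Mastermind-like joins the complex but cannot activate. The comparison asks which genes are set apart when a Notch1 impaired in dimerization is supplied, over a baseline in which the pathway is blocked at both steps.

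The line was a T-cell line by its markers: 7 of 7 measured T-cell markers, such as Cd3e and Lat, lay above the median of all genes on each of the 6 arrays. None of 6 B-cell markers did so, and 1 of 8 myeloid markers (Cd68), 0 of 4 erythroid and megakaryocyte markers and 1 of 7 natural killer markers (Gzma) did. Of 5 mast cell markers Cpa3 did, and of 8 stroma and epithelium markers Col1a1, Col1a2 and Pecam1 did. The median over all genes lay between 4.06 and 4.27 on the log2 scale on the 6 arrays, and a value in or below this range is treated here as near background. Across genes, which are not independent replicates, arrays correlated with r of 0.986 to 0.993 within R1984A-GSI and 0.989 to 0.994 within DNMAML-GSI, against 0.982 to 0.989 between the groups.

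In GSI, 642 of 19938 genes differed between R1984A and DNMAML cells (limma, adjusted p under 0.05), which is 3.22% of the genes tested. Of these, 318 were higher in R1984A-GSI (1.59%) and 324 lower (1.63%), and the median log2 difference over all genes was -0.00. The difference reached at least 1 on the log2 scale for 93 higher and 69 lower genes. Of the 15 largest rises named here, Il2ra, Nrarp and Dtx1 were on the Notch target list. The 15 largest falls included the chemokine receptor genes Ccr8 and Ccr9 and the mast cell gene Cpa3.

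The check of the labels came from the Notch1 probe set. It read 7.05, 7.16 and 7.0 on the R1984A-GSI arrays, against 5.68, 6.04 and 5.73 on the DNMAML-GSI arrays. All 3 R1984A arrays were thus higher, by a log2 difference of 1.25 (SE 0.13, adjusted p = 8.1e-07). Whether this probe set reads the transfected Notch1, the cell's own, or both was not tested. Maml1, whose product is the natural coactivator, differed by -0.21 (adjusted p = 0.65) and Rbpj by -0.49 (adjusted p = 0.25), and neither was called, although Rbpj was with the replicate block or array weights.

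R1984A-GSI stood higher in 9 of 27 measured Notch targets and lower in 3, beside 1.59% and 1.63% of all genes. The list's median difference was 0.09, beside -0.00 for all genes. The 9 include Notch1, whose probe set may read the transfected construct, which was not tested. Nrarp, a feedback inhibitor of the Notch complex, read 5.98, 6.18 and 6.20 in R1984A-GSI, against 4.16, 4.10 and 4.25 in DNMAML-GSI. The DNMAML arrays were near background and all R1984A arrays were well above it, with a difference of 1.95 (SE 0.11, adjusted p = 1.0e-10) whose size is therefore uncertain. Il2ra, part of the high-affinity interleukin-2 receptor, read 8.17, 7.98 and 8.25 in R1984A-GSI, against 5.98, 6.35 and 5.87 in DNMAML-GSI. That is 2.06 apart (SE 0.14, adjusted p = 2.6e-09), with no overlap. Dtx1, a ubiquitin ligase of the pathway, read 6.89, 6.65 and 6.65 in R1984A-GSI, against 4.25, 4.77 and 5.55 in DNMAML-GSI. The DNMAML arrays spread over more than 1 log2 unit, and the difference was 1.88 (SE 0.21, adjusted p = 2.2e-06). Replicate 1 of DNMAML-GSI was near background for Dtx1, so the size is uncertain. Hey1, a transcriptional repressor, read 9.94, 9.84 and 9.94 in R1984A-GSI, against 8.68, 8.43 and 8.37 in DNMAML-GSI, 1.41 apart (SE 0.11, adjusted p = 8.3e-09).

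Further called targets were closer together. Notch3, a second receptor of the family, was higher by 1.29 (SE 0.14, adjusted p = 1.3e-06), with 6.71 to 6.82 in R1984A-GSI and 5.26 to 5.77 in DNMAML-GSI. Runx1, which controls the formation of blood stem cells, was higher by 1.06 (SE 0.11, adjusted p = 8.5e-07). Myc, a driver of cell growth downstream of Notch, read 8.51, 8.5 and 8.14 in R1984A-GSI, against 7.59, 7.45 and 6.85 in DNMAML-GSI. Its difference of 1.09 (SE 0.21, adjusted p = 0.0024) rested on groups that do not overlap but in which replicate 3 was the lowest in both. Over empty vector in GSI, where Myc read 8.08, 8.18 and 7.07, R1984A-GSI was not called.

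A further 3 targets ran the other way and were lower in R1984A-GSI. Lztfl1, a regulator of ciliary protein traffic, read 8.97, 8.64 and 8.68 in R1984A-GSI, against 10.42, 10.78 and 10.54 in DNMAML-GSI. The difference was -1.81 (SE 0.12, adjusted p = 2.6e-09), with no overlap. Gata3 and Runx3, transcription factors of T-cell development, differed by -0.81 (SE 0.11, adjusted p = 3.7e-05) and -0.70 (SE 0.12, adjusted p = 8.5e-04).

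**Figure D1:**
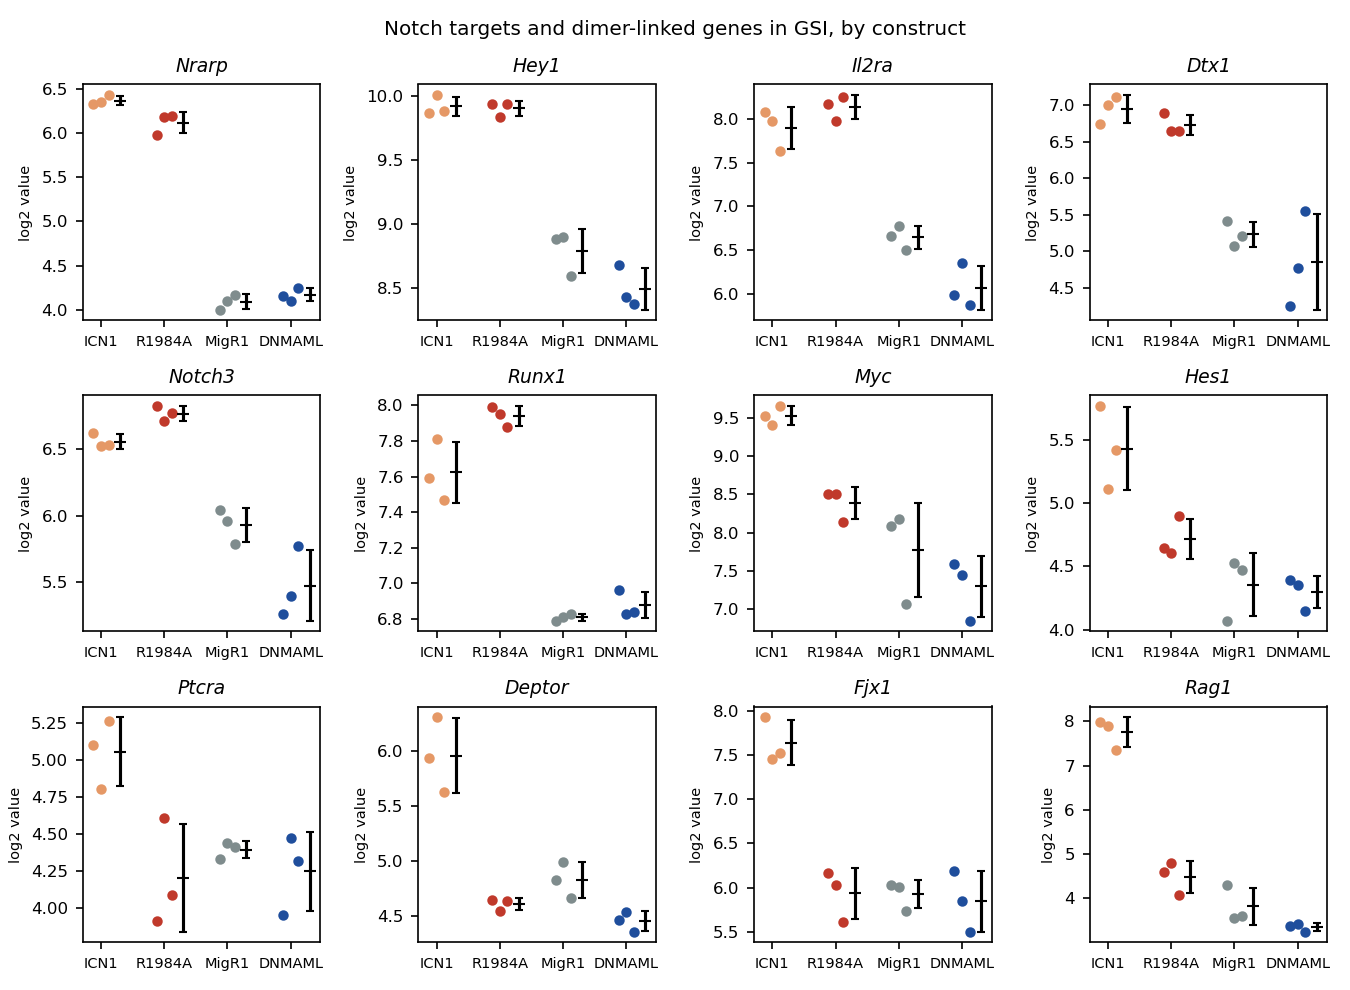
Log2 values in GSI of 12 genes in T6E cells with ICN1, R1984A, MigR1 or DNMAML. Each point is an array, and the bar beside it gives the mean with its SD over 3 arrays. R1984A points lie near ICN1 for Nrarp, Hey1, Il2ra and Dtx1, though below all ICN1 points for Nrarp. They lie near DNMAML for Ptcra, Deptor and Fjx1, though above all DNMAML points for Deptor.

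Targets linked to paired Notch sites and targets taken not to need dimerization were set side by side. Members of both kinds were chosen with earlier results of these data known, so the contrast is description only. The second kind comprised Hey1, Il2ra and Dtx1, and all 3 were higher, with a median of 1.88. Of the 5 paired-site targets, Nrarp and Myc were higher and 3 were not called, with a median of 0.43. Hes1, a repressor and a classic Notch target, read 4.65, 4.61 and 4.90 in R1984A-GSI, against 4.39, 4.35 and 4.15 in DNMAML-GSI. The groups did not overlap, as holds for 7.55% of all genes in that direction and 7.48% in the other, and the difference was 0.43 (SE 0.14, adjusted p = 0.12; 95% interval 0.14 to 0.72). Replicate 3 of DNMAML-GSI was near background for Hes1. Ptcra, which encodes the pre-T-cell receptor alpha chain, read 3.91, 4.61 and 4.09 in R1984A-GSI, against 3.95, 4.47 and 4.32 in DNMAML-GSI. These overlapped, at levels around the array medians and up to 4.61, at a difference of -0.04 (SE 0.17, adjusted p = 0.99; interval -0.39 to 0.30). Hes5, a relative of Hes1, differed by -0.14 (SE 0.14, adjusted p = 0.91). The interval of Hes1 lay above 0 although it was not called, and that of Ptcra reached to both sides of 0, so the values do not show that the constructs act alike on these genes.

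Cells with ICN1, which can dimerize, were measured in the same GSI condition and show where the same targets stood further up. ICN1-GSI and R1984A-GSI differed in 220 genes (1.1%), with 64 higher in ICN1-GSI (0.321%) and 156 lower (0.782%). Of the paired-site targets, 3 of 5 were higher in ICN1-GSI. Myc read 9.52, 9.41 and 9.65 in ICN1-GSI, above all R1984A-GSI arrays, 1.14 apart (SE 0.21, adjusted p = 0.0052). Hes1 was higher by 0.71 (SE 0.14, adjusted p = 0.0082) and Ptcra by 0.85 (SE 0.17, adjusted p = 0.0082). Nrarp, at 6.33, 6.35 and 6.43 in ICN1-GSI, was higher by 0.25 (SE 0.11, adjusted p = 0.46; interval 0.01 to 0.48) and was not called. Of the targets taken not to need dimerization, 0 of 3 were called, with differences of 0.02 for Hey1, 0.22 for Dtx1 and -0.24 for Il2ra.

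Deptor and Fjx1 gave the clearest separation among the Notch targets that were not called between R1984A and DNMAML cells. Deptor, an inhibitor of mTOR, read 5.94, 6.31 and 5.63 in ICN1-GSI, 4.65, 4.55 and 4.64 in R1984A-GSI, and 4.47, 4.54 and 4.36 in DNMAML-GSI. ICN1-GSI stood 1.35 above R1984A-GSI (SE 0.15, adjusted p = 1.7e-05), and R1984A-GSI 0.16 above DNMAML-GSI (SE 0.15, adjusted p = 0.90). Fjx1, related to the Drosophila kinase four-jointed, was 1.71 higher in ICN1-GSI than in R1984A-GSI (SE 0.21, adjusted p = 6.5e-05). Between R1984A-GSI and DNMAML-GSI it differed by 0.09 (SE 0.21, adjusted p = 0.98).

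The 34 measured pathway components held 3 higher genes and 0 lower ones, beside 1.59% and 1.63% of all genes. Their median was 0.03 (1 lower without replicate 1 of R1984A-GSI). The higher genes were Notch1, Notch3 and Jag1. Jag1, which encodes a Notch ligand, read 5.72, 5.49 and 5.82 in R1984A-GSI, against 4.98, 4.69 and 4.81 in DNMAML-GSI. It was higher by 0.85 (SE 0.13, adjusted p = 2.1e-04). The lowest difference among the 34 components, which include secretase subunits and Mastermind-like genes, was -0.59.

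Promoter sequences of the RefSeq genes (assembly GRCm38.p6, from 250 bases before to 50 bases after the start of the gene) were searched for TGGGAA on either strand, the core that Rbpj recognises. It was found in 76 of 232 promoters of higher genes (32.8%), in 60 of 261 promoters of lower genes (23.0%) and in 4219 of 15562 promoters of all genes tested (27.1%). Hes1, Myc and Hey1 had no matched entry and were not searched. Nrarp, Il2ra, Dtx1, Notch1, Notch3 and Jag1, all called higher, were searched and held no TGGGAA in the 250 bases before the start. Among the promoters that were, a paired arrangement of GTGNGAA and, after 15 to 17 bases, TTCNCAC was found in the promoter of 1 gene of 15562, Ripor2. The sequences below are the stretches around the match, 5' to 3', with the searched letters in capitals (TTCCCA is TGGGAA on the opposite strand). They come from some of the named genes with a match, and set called and not called genes side by side.
Serpinb8 (chr1:107589868-107590001, plus strand): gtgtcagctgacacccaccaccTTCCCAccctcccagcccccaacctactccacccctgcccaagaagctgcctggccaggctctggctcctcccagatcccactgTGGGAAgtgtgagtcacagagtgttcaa
Irf9 (chr14:55603780-55603908, plus strand): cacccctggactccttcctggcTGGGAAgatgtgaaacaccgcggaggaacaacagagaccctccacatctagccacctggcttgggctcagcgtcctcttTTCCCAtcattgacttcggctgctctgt
Rag1 (chr2:101649557-101649606, minus strand): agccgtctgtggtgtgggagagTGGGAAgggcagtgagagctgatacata
Nupr1 (chr7:126625568-126625617, minus strand): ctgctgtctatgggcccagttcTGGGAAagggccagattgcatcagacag
S100a6 (chr3:90612798-90612847, plus strand): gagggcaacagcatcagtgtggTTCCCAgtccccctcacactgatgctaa
Runx3 (chr4:135120469-135120518, plus strand): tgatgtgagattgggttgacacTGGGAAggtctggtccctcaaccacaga
Ccng2 (chr5:93267424-93267473, plus strand): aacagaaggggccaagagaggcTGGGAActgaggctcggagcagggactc
Ptcra (chr17:46763717-46763818, minus strand): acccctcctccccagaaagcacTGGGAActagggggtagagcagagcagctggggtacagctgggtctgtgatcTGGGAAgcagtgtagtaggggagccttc
Hes5 (chr4:154960675-154960868, plus strand): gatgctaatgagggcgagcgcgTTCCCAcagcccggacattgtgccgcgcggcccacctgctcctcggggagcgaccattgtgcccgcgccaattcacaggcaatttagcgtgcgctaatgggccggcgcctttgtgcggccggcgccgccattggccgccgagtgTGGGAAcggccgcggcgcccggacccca
Ripor2 (chr13:24614457-24614501, plus strand): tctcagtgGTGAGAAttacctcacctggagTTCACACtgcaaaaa

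Serpinb8, Irf9, Rag1 and Nupr1 were higher in R1984A-GSI, S100a6, Runx3 and Ccng2 were lower, and Ptcra and Hes5 were not called. Ripor2, which encodes an inhibitor of the GTPase RhoA, was chosen after its values were seen. It read 7.06, 6.92 and 6.51 in R1984A-GSI, against 5.70, 5.48 and 5.29 in DNMAML-GSI. The difference was 1.34 (SE 0.19, adjusted p = 6.4e-05), and ICN1-GSI stood below R1984A-GSI at -0.83 (SE 0.19, adjusted p = 0.027). A match describes letters only and no binding was measured.

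The genes with the largest rises in R1984A-GSI were mostly not on the Notch target list. Chit1, a chitinase, read 6.37, 5.24 and 6.30 in R1984A-GSI, against 3.11, 3.23 and 3.16 in DNMAML-GSI. All DNMAML arrays were below the median of all genes, so that the difference of 2.80 (SE 0.23, adjusted p = 3.8e-08) has an uncertain size. Pdgfrb, a receptor for platelet-derived growth factor, read 8.84, 8.97 and 9.24 in R1984A-GSI, against 6.47, 6.27 and 6.38 in DNMAML-GSI. It was measured clear of background in both groups, 2.64 apart (SE 0.16, adjusted p = 2.2e-10). Mfsd2a, a lysophospholipid transporter, read 7.32, 7.28 and 7.44 in R1984A-GSI, against 5.22, 5.32 and 4.59 in DNMAML-GSI, 2.31 apart (SE 0.17, adjusted p = 4.6e-09). Myo1d, an unconventional myosin, was higher by 2.33 (SE 0.25, adjusted p = 1.6e-06). Its replicate 1 of DNMAML-GSI was near background at 3.67, so the size is uncertain.

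Serpinb8, a serine protease inhibitor, read 6.57, 6.10 and 6.22 in R1984A-GSI, against 4.42, 3.88 and 4.09 in DNMAML-GSI. It was higher by 2.17 (SE 0.17, adjusted p = 2.3e-08), and ICN1-GSI stood another 1.70 above R1984A-GSI (SE 0.17, adjusted p = 3.9e-06). Replicates 2 and 3 of DNMAML-GSI were near background, so the size of the 2.17 is uncertain. The receptor for angiotensin 1-7, Mas1, was higher by 2.14 (SE 0.22, adjusted p = 7.8e-07), again over DNMAML arrays below the median of all genes. Cd7, a surface protein of T and natural killer cells, read 6.69, 5.56 and 7.20 in R1984A-GSI, against 4.36, 4.14 and 4.63 in DNMAML-GSI. Its R1984A arrays were widely spread, and the difference was 2.11 (SE 0.31, adjusted p = 1.3e-04). Replicate 2 of DNMAML-GSI was near background for Cd7, so the size is uncertain.

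Further rises were those of Tmem273 (2.12), Amotl1 (1.76), which encodes a junction protein that binds Yap, Mical1 (1.66), an actin-oxidising enzyme, and Rras2 (1.58), a Ras-like GTPase, with adjusted p-values of 3.3e-04 or lower. Rhox9, a homeobox gene of the reproductive cluster, read 8.94, 7.71 and 8.82 in R1984A-GSI, against 7.65, 6.47 and 4.73 in DNMAML-GSI. The highest DNMAML array nearly met the lowest R1984A array, and the difference was 2.21 (SE 0.58, adjusted p = 0.035). The call was lost without replicate 1 or 3 of R1984A-GSI or replicate 2 or 3 of DNMAML-GSI, with adjusted p = 0.083 to 0.26.

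**Figure D2:**
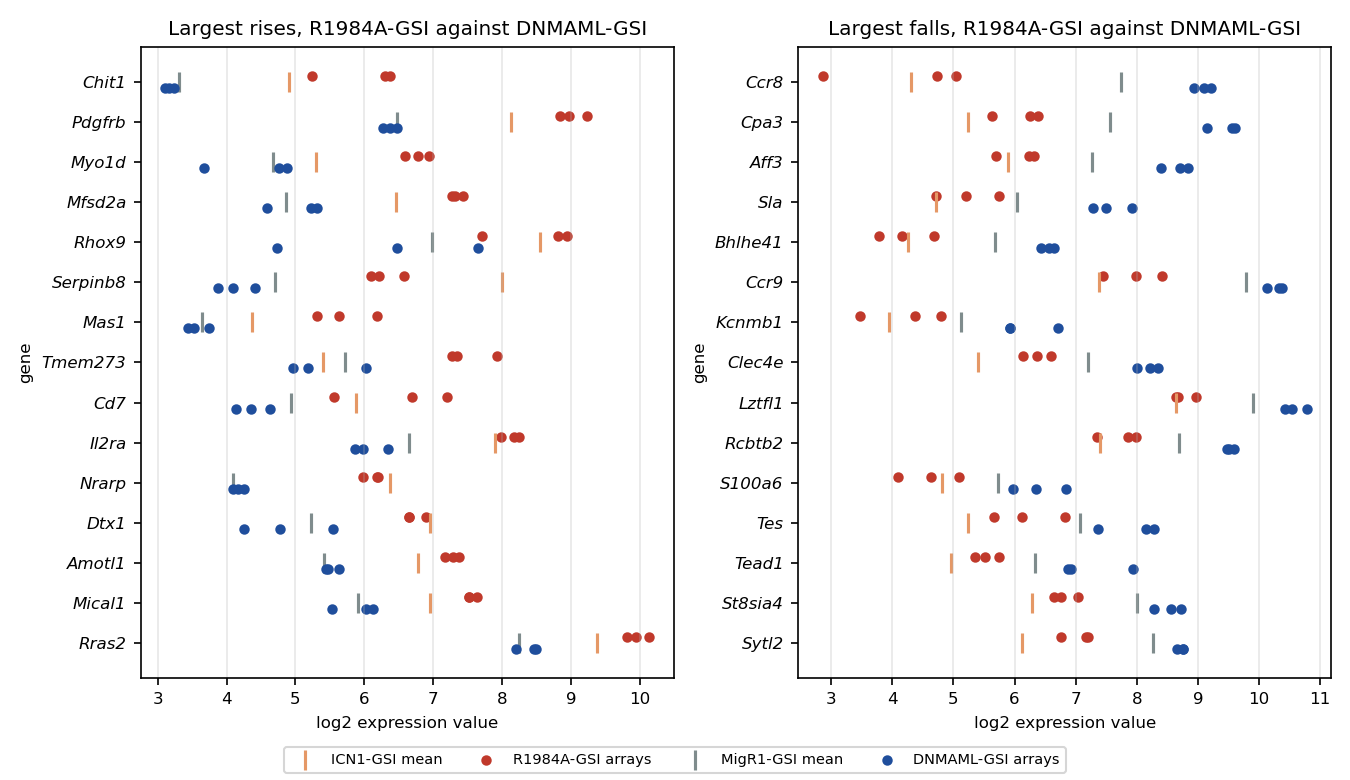
Log2 values of the 15 genes with the largest rise and the 15 with the largest fall in R1984A-GSI against DNMAML-GSI. Red and blue points are single arrays of R1984A-GSI and DNMAML-GSI, and ticks are the means of ICN1-GSI and MigR1-GSI. MigR1 ticks lie with the DNMAML points for most rises and between both groups for most falls.

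Several of the genes that were higher in R1984A-GSI were lower in ICN1-GSI than in R1984A-GSI. Of the 15 largest rises, ICN1-GSI was called below R1984A-GSI for Tmem273 (-2.11, SE 0.34, adjusted p = 0.0012), Myo1d (-1.47, SE 0.25, adjusted p = 0.0021), Mas1 (-1.34, SE 0.22, adjusted p = 0.0012), Chit1, Pdgfrb, Mfsd2a, Mical1 and Rras2. Tmem273 read 5.34, 5.56 and 5.29 in ICN1-GSI, 7.93, 7.34 and 7.27 in R1984A-GSI, and 6.03, 5.19 and 4.96 in DNMAML-GSI. ICN1 and DNMAML arrays overlapped, and R1984A stood above both. Pdgfrb read 7.91, 8.12 and 8.35 in ICN1-GSI, which is between both other groups and -0.89 from R1984A-GSI (SE 0.16, adjusted p = 0.0027). Only Serpinb8 of the 15 was called higher in ICN1-GSI. The 15 were picked for high values on the same R1984A-GSI arrays, which favours calls below R1984A-GSI in this reading. A set picked on other arrays was the 332 genes called higher in R1984A-DMSO than in DNMAML-DMSO. Of these, 52 were lower and 16 higher in ICN1-GSI than in R1984A-GSI, with a median of -0.11. Of all genes, 0.782% were lower and 0.321% higher. GSI and DMSO arrays of R1984A may share cultures, which the labels do not say, so this set may also favour calls below R1984A-GSI.

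The largest fall of the comparison was that of Ccr8, a chemokine receptor of skin-homing and regulatory T cells. It read 5.05, 4.73 and 2.86 in R1984A-GSI, against 8.93, 9.10 and 9.21 in DNMAML-GSI. The difference was -4.87 (SE 0.39, adjusted p = 1.9e-08), or -4.19 without replicate 3 of R1984A-GSI, which was near background. Ccr9, the receptor that guides T cells to thymus and gut, read 8.41, 7.99 and 7.44 in R1984A-GSI, against 10.13, 10.38 and 10.33 in DNMAML-GSI. It differed by -2.34 (SE 0.27, adjusted p = 6.2e-06), and both groups lay far above background.

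Cpa3, a carboxypeptidase stored in mast cell granules, read 6.38, 6.26 and 5.63 in R1984A-GSI, against 9.15, 9.60 and 9.55 in DNMAML-GSI. It differed by -3.34 (SE 0.26, adjusted p = 1.1e-08). Of the 5 mast cell markers it was the only one called, the mean of the list lay at 3.50 to 3.56 in R1984A-GSI and 4.13 to 4.31 in DNMAML-GSI, and Mcpt4, Tpsb2, Fcer1a and Ms4a2 averaged below the median of all genes in both groups. The endothelial marker Pecam1 differed by -1.05 (adjusted p = 7.1e-04), the T-cell marker Thy1 by -0.89 (adjusted p = 4.8e-04) and Gzma, a granzyme gene, by -0.40 (adjusted p = 0.049). No other marker of the cell types listed above was called.

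Sla, a Src-like adaptor that lowers T-cell receptor levels, read 5.75, 5.21 and 4.72 in R1984A-GSI, against 7.28, 7.93 and 7.49 in DNMAML-GSI. It differed by -2.34 (SE 0.25, adjusted p = 1.1e-06). Aff3, a nuclear protein of the family that joins elongation complexes, differed by -2.55 (SE 0.18, adjusted p = 3.4e-09), and Bhlhe41, a transcriptional repressor, by -2.34 (SE 0.20, adjusted p = 4.7e-08). Bhlhe41 read 4.68, 3.79 and 4.16 in R1984A-GSI, of which the 4.68 lay above the range of the array medians. Clec4e, a C-type lectin receptor, was at -1.82, Kcnmb1, a subunit of a calcium-activated potassium channel, at -1.97, and Tead1, a transcription factor of the Hippo pathway, at -1.71. The remaining falls among the 15 largest were those of Rcbtb2 (-1.80), the calcium-binding protein gene S100a6 (-1.79), the focal adhesion gene Tes (-1.73), the polysialyltransferase gene St8sia4 (-1.70) and Sytl2 (-1.68), a gene of vesicle traffic. Replicate 3 of R1984A-GSI was near background for Kcnmb1 (3.48) and S100a6 (4.09), so the sizes of their differences are uncertain.

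Gene lists of cell biology were then read in the same fit, in which 1.59% of all genes were called higher and 1.63% lower. Of 45 measured Myc and ribosome biogenesis genes 12 were higher in R1984A-GSI and 0 lower, and the median was 0.31, with 40 of 45 above 0. Ndufaf4, an assembly factor of respiratory complex I that Myc induces, read 8.04, 7.93 and 7.85 in R1984A-GSI, against 7.15, 7.21 and 6.92 in DNMAML-GSI. It was higher by 0.84 (SE 0.11, adjusted p = 4.0e-05). Ddx21, a nucleolar helicase, and Gnl3, a nucleolar GTPase, were each higher by 0.68, with adjusted p-values of 0.0044 and 3.8e-04. Polr1b, a subunit of RNA polymerase I, was higher by 0.66 (adjusted p = 0.028). It lost its call when any 1 array was left out except replicate 2 of DNMAML-GSI, with adjusted p = 0.072 to 0.14, and without 1 array the list held 7 to 10 higher genes, with the 7 found without replicate 1 of R1984A-GSI or replicate 3 of DNMAML-GSI. Other settings gave 8 higher members (only the groups compared) to 20 (replicate block).

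Genes of DNA replication and of mitosis held 1 call. Of 23 measured G1/S genes 0 were called, with a median of -0.01 and a range of -0.25 to 0.18. Of 27 G2/M genes 1 was lower, Nusap1, a spindle protein, at -0.65 (SE 0.14, adjusted p = 0.0053). The median of that list was -0.24, and 1 of its 27 genes lay above 0.

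Of 30 measured T-lineage genes 9 were lower in R1984A-GSI and 1 was higher, with a median of -0.19. Ets1, a transcription factor of lymphocytes, read 5.67, 5.33 and 5.02 in R1984A-GSI, against 6.68, 6.57 and 6.50 in DNMAML-GSI. It differed by -1.25 (SE 0.14, adjusted p = 3.2e-06), with no overlap. Cd247, the zeta chain of the T-cell receptor complex, differed by -1.18 (SE 0.18, adjusted p = 1.6e-04). Cd4, the co-receptor of helper T cells, read 3.59, 3.50 and 3.52 in R1984A-GSI, against 4.29, 4.87 and 4.86 in DNMAML-GSI. It differed by -1.14 (SE 0.15, adjusted p = 3.8e-05). The R1984A arrays were near background and the DNMAML arrays above it, so that its size is uncertain. The higher gene was Rag1, a subunit of the recombinase of antigen receptor genes, which read 4.59, 4.79 and 4.08 in R1984A-GSI, against 3.38, 3.42 and 3.25 in DNMAML-GSI. The call of its 1.14 (SE 0.31, adjusted p = 0.043) held without replicate 3 of R1984A-GSI and was lost without any other 1 of the 6 arrays, with adjusted p = 0.10 to 0.21. For Rag1, all DNMAML arrays and replicate 3 of R1984A-GSI were near background, so the size is uncertain.

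Genes of T-cell receptor signalling moved both ways, with 5 higher and 5 lower of 23 and a median of 0.01. Nr4a1, an immediate early nuclear receptor, read 6.37, 6.26 and 5.94 in R1984A-GSI, against 4.86, 4.84 and 4.82 in DNMAML-GSI. It was higher by 1.36 (SE 0.15, adjusted p = 3.8e-06). Cd28, the main costimulatory receptor, was higher by 1.27 (SE 0.19, adjusted p = 1.8e-04). Pdcd1, the inhibitory receptor PD-1, read 5.01, 5.44 and 5.0 in R1984A-GSI, against 6.34, 6.88 and 6.48 in DNMAML-GSI, a difference of -1.42 (SE 0.23, adjusted p = 4.3e-04). Without replicate 2 of R1984A-GSI, or replicate 1 or 3 of DNMAML-GSI, 3 were higher and 3 lower, and 3 were lower without any 1 array other than replicate 1 of R1984A-GSI. Of 21 cytokine, chemokine and homing receptors, 2 were higher, Il2ra and Il15ra, and 3 were lower, Ccr8 and Ccr9 among them, with a median of -0.13 (5 lower without replicate 2 of DNMAML-GSI). Il15ra, the alpha chain of the interleukin-15 receptor, was higher by 0.85 (SE 0.15, adjusted p = 0.0011).

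Of 15 Bcl2 family and p53 genes 2 were lower, with a median of -0.08. Bcl2, which protects cells from apoptosis, read 8.13, 7.99 and 7.84 in R1984A-GSI, against 9.01, 9.03 and 8.92 in DNMAML-GSI. Its spread within groups was small beside the difference of -1.0 (SE 0.11, adjusted p = 2.2e-06). Bcl2l1, its relative Bcl-xL, differed by -0.71 (SE 0.19, adjusted p = 0.047), a call that was lost without any 1 of the 6 arrays except replicate 1 of R1984A-GSI, with adjusted p = 0.054 to 0.21.

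Quiescence genes had 4 lower and 0 higher members of 19, with a median of -0.27. They were Cdkn2c (-0.71, adjusted p = 0.018) and Cdkn1b (-0.47, adjusted p = 0.040), inhibitors of cyclin-dependent kinases, Ccng2 (-0.70, adjusted p = 0.014), a cyclin of resting cells, and Txnip (-0.61, adjusted p = 0.015), an inhibitor of thioredoxin and glucose uptake. None of these 4 calls held in every fit that left out 1 array. Cdkn2c lost its call without replicate 3 of R1984A-GSI or replicate 1 or 2 of DNMAML-GSI (adjusted p = 0.10 to 0.16), and Cdkn1b without replicate 1 or 2 of either group (0.10 to 0.26). Ccng2 lost it without replicate 2 or 3 of R1984A-GSI or replicate 1 or 2 of DNMAML-GSI (0.051 to 0.069), and Txnip without replicate 2 or 3 of R1984A-GSI or replicate 3 of DNMAML-GSI (0.055 to 0.14). In the fits without replicate 2 or 3 of R1984A-GSI or replicate 1 or 2 of DNMAML-GSI, 1 member was lower.

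The metabolic and signalling lists held few calls. Among 18 mTOR and PI3K regulators, Phlpp1, a phosphatase that acts on Akt, was higher by 0.88 (SE 0.14, adjusted p = 3.9e-04). Inpp4b, a lipid phosphatase, differed by -0.64 (adjusted p = 0.029), a call lost without replicate 2 or 3 of either group (adjusted p = 0.11 to 0.14). Among 20 amino acid stress genes, Nupr1, a stress-induced nuclear protein, was higher by 0.97 (SE 0.21, adjusted p = 0.0080). Mthfd2, a mitochondrial folate enzyme, was higher by 0.43 (adjusted p = 0.040), a call lost without any 1 of the 6 arrays (adjusted p = 0.066 to 0.18). Ddit3, a stress-induced transcription factor, differed by -0.48 (adjusted p = 0.0083), which became 0.070 without replicate 3 of R1984A-GSI and 0.066 without replicate 1 of DNMAML-GSI. Of 16 interferon response genes 1 was called, Irf9, a subunit of the interferon-activated factor, higher by 1.20 (SE 0.18, adjusted p = 1.7e-04). Of 16 cholesterol synthesis genes 0 were called in the fit used here, while 15 lay above 0 with a median of 0.28. The list held 6 higher genes with the replicate number as a block, 4 with a second quantile normalization, 2 with array weights, and 1 without replicate 3 of R1984A-GSI.

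**Figure D3:**
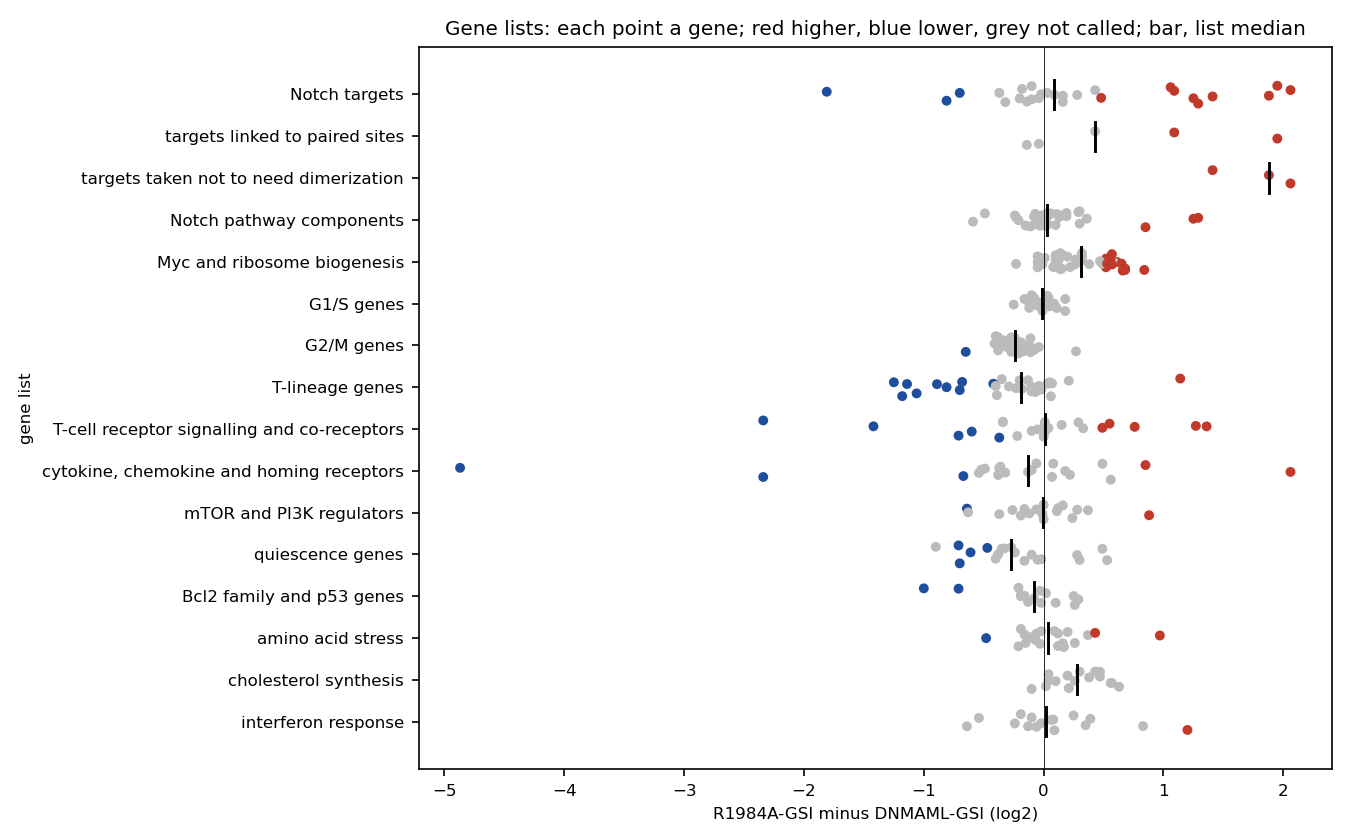
Log2 differences between R1984A-GSI and DNMAML-GSI for the measured genes of 16 lists. Each point is a gene, red if called higher, blue if called lower and grey if not called, and the black bar is the median of the list. The 3 targets taken not to need dimerization have the highest median, 1.88, and G1/S genes lie between -0.25 and 0.18. The lists were chosen with earlier results of these data known.

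The same constructs were measured in DMSO on 6 other arrays, which share no array with the GSI comparison. The labels do not say whether same-numbered GSI and DMSO arrays of a construct came from the same culture. The gaps in both treatments may therefore not be independent. In DMSO 596 genes differed (2.99%), 332 higher in R1984A-DMSO (1.67%) and 264 lower (1.32%). Same-numbered arrays deviated together in this comparison, and with the replicate number as a block 1040 genes differed, 596 higher and 444 lower. Of the 318 genes higher in GSI, 231 were also higher in DMSO, which is 72.6% of the GSI genes and 69.6% of the DMSO genes. Of the 324 lower genes 209 were lower in DMSO as well, 64.5% of the GSI genes and 79.2% of the DMSO genes, and 0 genes were called in opposite directions. With the block in the DMSO fit, 270 higher genes were shared (84.9% of the GSI genes and 45.3% of the DMSO genes) and 256 lower genes (79% of the GSI genes and 57.7% of the DMSO genes). The 332 genes higher in DMSO had a median difference of 0.68 in GSI and 0.73 in DMSO, and the 264 lower genes had -0.75 in GSI and -0.71 in DMSO.

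The differences of single genes in both treatments follow. Ccr8 differed by -4.87 in GSI and -4.89 in DMSO, Pdgfrb by 2.64 in GSI and 2.55 in DMSO, Nrarp by 1.95 in GSI and 2.09 in DMSO, and Il2ra by 2.06 in GSI and 2.02 in DMSO. Hey1 was 1.41 apart in GSI and 0.81 in DMSO, and Hes1 0.43 in GSI and 0.92 in DMSO, where it was called (adjusted p = 2.0e-04). Myc, called in GSI, was 0.71 apart in DMSO and was not called there (adjusted p = 0.076, or 0.013 with the replicate block). In DMSO the cell's own Notch was not held by GSI. Empty vector in DMSO averaged 4.81 for Hes1 and 5.31 for Nrarp, above DNMAML-DMSO at 4.15 and 4.07. For Chit1 it averaged 3.34, against 3.30 in DNMAML-DMSO. For Myc it averaged 9.28, above R1984A-DMSO at 8.59. How much of each DMSO gap came from R1984A was not tested. The test of whether the gap itself differed between GSI and DMSO called 0 of 19938 genes with limma. An unadjusted p under 0.05 was found for 455 genes, fewer than the 996.9 expected by chance. The test did not pair same-numbered arrays of a construct across treatments, so 0 calls do not show that the gaps were the same. For Hey1 the difference of the gaps was 0.60 (SE 0.15, adjusted p = 1.0), and for Hes1 it was -0.49 (SE 0.20, adjusted p = 1.0).

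**Figure D4:**
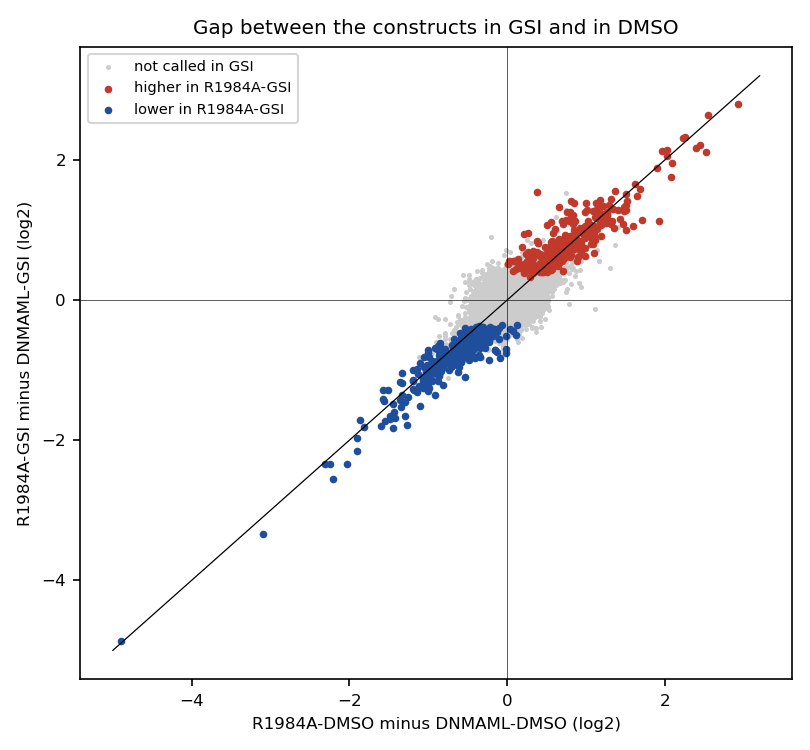
Log2 difference between R1984A and DNMAML cells for each of 19938 genes, in DMSO on the horizontal axis and in GSI on the vertical axis. Red and blue points are called in GSI, and the line marks equal differences. The called genes lie along the line, with Ccr8 at the lower left.

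Cells with the empty vector show on which side of the gap the genes moved. Genes were picked on the DMSO arrays and read on the GSI arrays against MigR1-GSI, which is shared by both readings, so their values are given side by side. As GSI and DMSO arrays of a construct may not be independent, the picking may favour the sides read here. The 332 genes higher in R1984A-DMSO had a median of 0.60 in R1984A-GSI against MigR1-GSI, where 160 were called higher, beside 1.04% of all genes. In DNMAML-GSI against MigR1-GSI their median was -0.08, with 15 called lower, beside 0.0853% of all genes. The 264 genes lower in R1984A-DMSO had a median of -0.39 in R1984A-GSI against MigR1-GSI, with 58 called lower, beside 0.326% of all genes. In DNMAML-GSI against MigR1-GSI that median was 0.37, with 18 called higher, beside 0.105% of all genes. With 1 GSI array left out or a second quantile normalization, the higher genes had medians of 0.57 to 0.62 in R1984A-GSI and -0.12 to -0.06 in DNMAML-GSI, and the lower genes -0.45 to -0.33 in R1984A-GSI and 0.33 to 0.40 in DNMAML-GSI. The counts moved more. The 58 became 34 without replicate 2 and 22 without replicate 3 of R1984A-GSI, and 30 without replicate 1 and 36 without replicate 2 of MigR1-GSI. The 15 became 9, 5 and 4 without replicates 1, 2 and 3 of DNMAML-GSI, 3 without replicate 1 and 4 without replicate 2 of MigR1-GSI, and 27 with the second normalization. The 18 became 3 without replicate 2 and 6 without replicate 3 of DNMAML-GSI, and 7, 7 and 5 without replicates 1, 2 and 3 of MigR1-GSI. Same-numbered DNMAML-GSI and MigR1-GSI arrays also deviated together, and with the replicate number as a block the 15 became 31 and the 18 became 56. On these arrays, genes higher in R1984A cells thus lay above empty vector in R1984A-GSI and close to it in DNMAML-GSI, while genes lower in R1984A cells lay about as far below it in R1984A-GSI as above it in DNMAML-GSI.

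**Figure D5:**
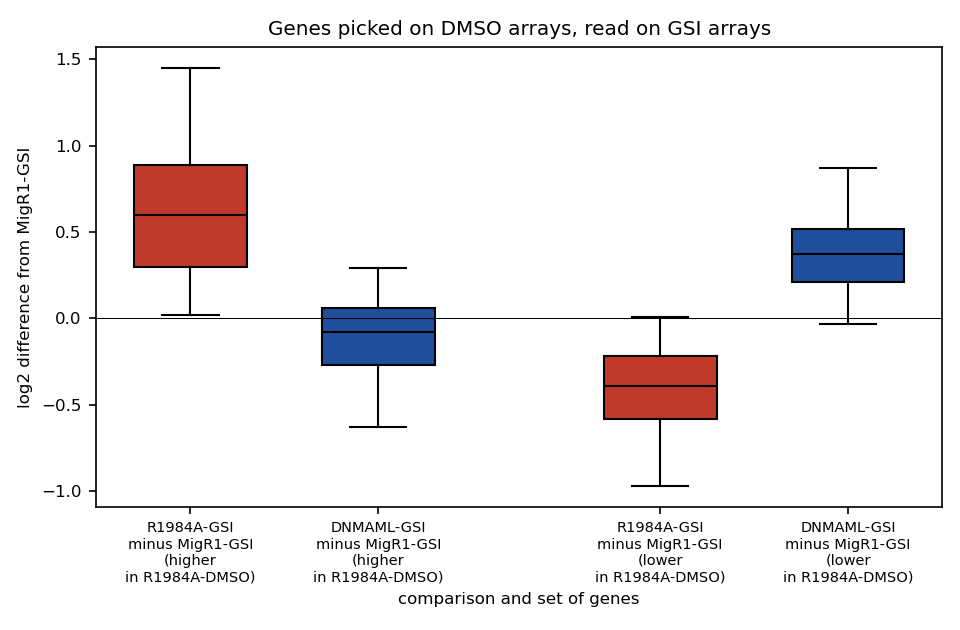
Log2 differences from MigR1-GSI of the 332 genes higher and the 264 genes lower in R1984A-DMSO than in DNMAML-DMSO, read on GSI arrays. Boxes span the quartiles with the median as a line, and whiskers reach the 5th and 95th percentiles. The medians are 0.60 for R1984A-GSI and -0.08 for DNMAML-GSI in the higher genes, and -0.39 for R1984A-GSI and 0.37 for DNMAML-GSI in the lower genes.

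Values of single genes and of some lists follow, and not all of them took these courses. Pdgfrb read 2.54 above MigR1-GSI in R1984A-GSI (SE 0.16, adjusted p = 5.1e-10) and -0.10 from it in DNMAML-GSI (SE 0.16, adjusted p = 1.0). Cpa3 differed from MigR1-GSI by -1.47 in R1984A-GSI (SE 0.26, adjusted p = 0.0016) and by 1.88 in DNMAML-GSI (SE 0.26, adjusted p = 0.0020). Sla differed from MigR1-GSI by -0.81 in R1984A-GSI (SE 0.25, adjusted p = 0.15) and by 1.53 in DNMAML-GSI (SE 0.25, adjusted p = 0.0064), and Aff3 by -1.19 (adjusted p = 3.0e-04) and 1.37 (adjusted p = 0.0020). Of the 45 Myc and ribosome biogenesis genes 0 were called in R1984A-GSI against MigR1-GSI, with a median of -0.03, while 4 were lower in DNMAML-GSI against MigR1-GSI (13 with the replicate block), with a median of -0.34. Ndufaf4 was one of the 4, at -0.65 (SE 0.11, adjusted p = 0.014). Of 19 quiescence genes 2 were higher and 0 lower in R1984A-GSI against MigR1-GSI, beside 1.04% and 0.326% of all genes, with a median of -0.03. In DNMAML-GSI against MigR1-GSI 0 were called (3 higher with the replicate block), with a median of 0.24 and 17 above 0. For 27 G2/M genes the medians were -0.04 in R1984A-GSI (1 called higher) and 0.21 in DNMAML-GSI (0 called, or 1 higher with the block).

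Another set of genes separated ICN1-GSI from both R1984A-GSI and DNMAML-GSI. ICN1-GSI and DNMAML-GSI, which share the DNMAML-GSI arrays with the main comparison, differed in 1393 genes (6.99%), 639 higher in ICN1-GSI (3.2%) and 754 lower (3.78%). By a rule that asked for a call in ICN1-GSI against both R1984A-GSI and DNMAML-GSI and for none between R1984A-GSI and DNMAML-GSI, 43 genes were above and 54 below. These counts describe what the rule selects. Rag2, the partner of Rag1, read 5.64, 5.22 and 4.50 in ICN1-GSI, 2.78, 2.49 and 2.33 in R1984A-GSI, and 2.49, 2.25 and 2.66 in DNMAML-GSI. The R1984A and DNMAML arrays overlapped below the median of all genes.

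Further genes higher in ICN1-GSI than in R1984A-GSI were Iftap (3.79), a gene beside Rag2, Tmem255a (3.52), Zfp750 (2.75), a zinc finger factor, and Il10 (1.82), a cytokine that restrains inflammation. Rag1 was 3.27 higher in ICN1-GSI than in R1984A-GSI (SE 0.31, adjusted p = 1.1e-06). Sec14l2, a lipid-binding protein gene, was 1.65 higher and Fbp1, an enzyme of gluconeogenesis, 1.47 higher. The R1984A-GSI means of Iftap (3.18), Tmem255a (3.55), Il10 (3.27) and Fbp1 (3.34) were below the array medians, as were all R1984A arrays of Rag2, so that the sizes of these differences are uncertain. Between R1984A-GSI and DNMAML-GSI, Zfp750 differed by 0.38 (adjusted p = 0.29; called with array weights) and Il10 by 0.46 (adjusted p = 0.35).

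Genes below in ICN1-GSI included Etv5, an ETS factor, at 8.49, 8.43 and 8.20 in ICN1-GSI, 9.41, 9.42 and 9.80 in R1984A-GSI, and 9.67, 9.65 and 9.86 in DNMAML-GSI. ICN1 arrays lay below all others, with a difference of -1.17 from R1984A-GSI (SE 0.12, adjusted p = 6.3e-06). Slc15a1, a peptide transporter, read 6.21, 6.4 and 4.28 in ICN1-GSI, 7.90, 7.91 and 7.53 in R1984A-GSI, and 8.70, 9.0 and 8.71 in DNMAML-GSI. ICN1-GSI was -2.15 from R1984A-GSI (SE 0.34, adjusted p = 9.7e-04). R1984A-GSI was -1.02 from DNMAML-GSI with no overlap (SE 0.34, adjusted p = 0.13), a difference that was called with the replicate block, with only the groups compared and with array weights. Against R1984A-GSI, Rgs2, a regulator of G-protein signalling, differed by -1.23 (adjusted p = 0.0080), and Lrrc6, a factor of dynein assembly, by -1.54 (adjusted p = 0.0062). Lrrc6 also differed by -0.77 between R1984A-GSI and DNMAML-GSI (adjusted p = 0.23), which was called with only the groups compared and with array weights. Ikzf2, which encodes the lymphocyte factor Helios, was at -1.04, Tespa1, a gene of thymocyte selection, at -1.08, Fam20a at -1.13 and Rps6ka5, a kinase that acts on chromatin, at -1.03. The 220 calls of ICN1-GSI against R1984A-GSI depended on single arrays, with 122 left without replicate 2 of R1984A-GSI, 132 without its replicate 3, and 115 without replicate 3 of ICN1-GSI, 56 of them higher and 59 lower.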

How the data were processed

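RNA of T6E cells was hybridised to the Affymetrix Mouse Gene 1.0 ST array. Per the labels, groups come from the sample titles, and RNA was extracted with Trizol. The values are log2 expression values that the authors deposited, 1 for each probe set on each array, in a range of 1.28 to 13.47. The R packages oligo and limma are named in the submitters' processing notes, while background correction and normalization are not given in the sources used here.

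No further scaling was applied. Gene names came from the platform annotation. Of 35556 probe sets, 21789 had 1 gene symbol, 1621 several and 12146 none in the table used here. Where a gene had several probe sets, the one that was brightest on average across the 24 arrays stood for it, which left 19938 genes. The comparisons used limma 3.58.1 (R 4.3.3) on all 24 arrays with a mean per group, 8 in all, and moderated two-sided tests (residual degrees of freedom 16, prior 6.56). A gene was called at a Benjamini-Hochberg adjusted p under 0.05 over all 19938 genes. Every adjusted p in the text is of this fit unless another setting is named. Differences carry their standard error, with R1984A minus DNMAML unless stated. The fit was tested on simulated data with known changes. Precision is limited by how many arrays each group has.

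The rule for named genes takes up to 15 rises and 15 falls of the main comparison that are called with no overlap of arrays, members of the Notch target lists, up to 4 called members of each other list, and up to 8 genes each way that set ICN1-GSI apart. Clone names, antigen receptor segments and small RNAs were not named, and 1 called target is not reported here. The genes and lists were chosen with earlier results of these data known. The titles number the replicates 1 to 3. Deviations of same-numbered arrays from their group means correlated at 0.16, 0.21 and 0.47 between R1984A-DMSO and DNMAML-DMSO and at 0.34, 0.22 and 0.56 between DNMAML-GSI and MigR1-GSI, so these were also read with the number as a block. The other comparisons had a pair at 0.06 or lower. Replicate 3 had the highest median in all 8 groups. Alternatives were a replicate block, only the groups compared, every probe set, no dim genes, a second quantile normalization, array weights, an intensity trend and leaving out each array.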

Additional observations from a re-analysis of the deposited data

How the results depend on the processing

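Of the 65 named genes called between R1984A-GSI and DNMAML-GSI, 0 changed direction under any alternative, and single arrays ended calls named in the report. Same-numbered arrays of R1984A-GSI and DNMAML-GSI had correlated deviations of 0.36, -0.01 and 0.43, so that the numbers were not taken as pairs there. With the replicate number as a block, 1194 genes were called in place of 642, 1040 in place of 596 in DMSO, 577 in place of 220 for ICN1-GSI against R1984A-GSI, 2261 in place of 1393 for ICN1-GSI against DNMAML-GSI, 496 in place of 272 for R1984A-GSI against MigR1-GSI and 163 in place of 38 for DNMAML-GSI against MigR1-GSI, and the block ended 0 of the 65 calls. Settings other than leaving out an array gave 2 to 6 higher T-cell receptor signalling genes, 2 to 4 higher and 2 to 7 lower cytokine, chemokine and homing receptors, 1 to 9 lower quiescence genes, 1 to 4 lower G2/M genes, 1 to 3 lower mTOR and PI3K regulators, 1 to 3 higher amino acid stress genes, and 0 to 2 lower pathway components and interferon response genes each. Array weights gave 1556 genes for R1984A-GSI against DNMAML-GSI, 739 for ICN1-GSI against R1984A-GSI, 690 for R1984A-GSI against MigR1-GSI and 90 for DNMAML-GSI against MigR1-GSI. Fitting only the groups compared gave 51 for ICN1-GSI against R1984A-GSI, 96 for R1984A-GSI against MigR1-GSI and 5 for DNMAML-GSI against MigR1-GSI, with fewer arrays to estimate the spread, and ended the calls of Rhox9, Ddx21, Cdkn2c, Txnip, Cdkn1b, Ddit3 and Mthfd2. A second quantile normalization gave 77 for DNMAML-GSI against MigR1-GSI and ended the calls of Rag1, Txnip and Cdkn1b, and keeping every probe set ended that of Bcl2l1. Leaving out 1 array gave 441 to 561 genes for R1984A-GSI against DNMAML-GSI, 405 to 440 in DMSO, 115 to 184 for ICN1-GSI against R1984A-GSI, 1032 to 1177 for ICN1-GSI against DNMAML-GSI, 179 to 244 for R1984A-GSI against MigR1-GSI (179 without replicate 3 of R1984A-GSI) and 9 to 23 for DNMAML-GSI against MigR1-GSI (9 without replicate 2 of DNMAML-GSI and 23 without its replicate 1, and 12, 12 and 21 without replicates 1, 2 and 3 of MigR1-GSI). The treatment test called 0 genes under every setting run. Uncalled differences near 0 changed sign: Ptcra was 0.16 with array weights and -0.25 to 0.10 without 1 array, Fjx1 -0.08 to 0.26 and Rag2 -0.06 to 0.17 without 1 array, and Fam20a -0.06 with array weights and -0.10 to 0.18 without 1 array. The cause of these changes was not tested. Values near the array medians, such as those of Chit1, Mas1 and Nrarp in DNMAML-GSI and of Cd4 in R1984A-GSI, limit the size of a difference.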
